A study of Mus musculus with 48 samples.

Results

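The response of the cerebral cortex to nPM was examined in male C57BL/6J (B6) mice, by comparing the 4 males that inhaled nPM with the 4 males that inhaled filtered air. These 8 mice are the male B6 columns of a series of 48 mice, which holds 4 mice in each of 12 groups by sex, genotype and exposure. All 8 were wild type, aged 4 months by the labels, and carried no transgene. Exposure lasted 8 weeks, with 3 sessions of 5 hr each week. The nPM mice inhaled re-aerosolized urban nano-sized particulate matter and the control mice filtered air. Controls are called control M0, M2, M3 and M6, and exposed mice nPM M10, M11, M12 and M16, after their numbers in the labels. Each library came from 1 mouse. For comparison, B6 females of the same age and exposure and APOE3 and APOE4 males are used. These APOE males carry human APOE3 or APOE4 in place of mouse *Apoe*, were labelled 6 months old and were exposed for 15 weeks. The paper states that its B6 and APOE exposures used different batches of nPM. The labels name no batch of dissection, extraction or sequencing, so any such batch cannot be told apart from single mice or from exposure. Of 27082 genes listed for B6 mice, 15344 lay above the value of a gene without reads in all 8 males and were tested.

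nPM is a fraction of traffic-derived particles that carries metals and organic carbon and can provoke oxidative stress and inflammation in the brain. Oxidative stress releases the transcription factor NRF2 (gene *Nfe2l2*) from its inhibitor KEAP1, and NRF2 then induces enzymes that make glutathione and detoxify reactive compounds. Inflammatory signals release NFKB dimers from their inhibitors and induce cytokines and adhesion molecules. The cerebral cortex is built of excitatory pyramidal neurons, inhibitory interneurons, glia and vessels, and RNA of the whole tissue averages over them. In such bulk RNA, fewer cells of a type and less RNA per cell cannot be told apart.

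Values are CPM, read counts scaled to library size, as deposited. The libraries held, in 1e6 reads (M), an estimated 2.05 to 17.2 M reads in controls and 4.22 to 14.9 M in nPM mice, with 18069 to 21997 and 19393 to 21919 genes above the no-read value. Neither measure separated the groups (exact permutation p = 0.686 and p = 0.514, two-sided over 70 labelings, smallest possible p 0.0286). The Y-linked gene *Ddx3y* stood between 6.81 and 24.5 CPM in all 8 mice, and *Xist*, which silences 1 X chromosome in females, at most at 0.397 CPM. Both were as the male label states. Control M0 stood apart on the first principal component (32.4% of variance), at -88.7 against 8.09 to 12.4 in the other controls. It had the fewest genes above the no-read value (18069) at an estimated 13.3 M reads. Its mean Spearman correlation with the other mice was 0.869, against 0.914 to 0.939 for the others. Its 50 highest genes held 35.8% of summed CPM, against at most 33.7% in the others. Whether library quality had a part in its values was not tested.

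The labelled tissue was checked with markers of cell types, and the controls differed among themselves in the genes of cortical pyramidal neurons. The summed CPM of 7 cortical excitatory markers was 84.4 in control M0, 199 in M2, 1015 in M3 and 496 in M6, against 903, 626, 915 and 919 in nPM M10, M11, M12 and M16. Controls thus spanned the whole range, with M0 and M2 far below every exposed mouse and M3 above all of them. In the 8 B6 females the same sum ran from 578 to 1002, so that M0, M2 and M6 lay below every B6 female. For the 4 against 4 males the difference in the sums did not pass an exact permutation test (p = 0.143, two-sided).

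*Tbr1*, a transcription factor of deep-layer projection neurons, stood at 4.23, 20.8, 116 and 60.3 CPM in controls M0, M2, M3 and M6 and at 96.7, 76.1, 129 and 116 CPM in nPM M10, M11, M12 and M16. *Slc17a7*, the vesicular glutamate transporter of cortical neurons, was at 50 CPM in control M0 and 127 CPM in M2, against 324 CPM or more in the other 6 mice. The defining marker *Fezf2*, of subcortical projection neurons, was at the no-read value in control M0, which removed it from the test, and at 5.38, 37.5 and 7.75 CPM in the other controls and 8.55 to 30.5 CPM with nPM. In each of these genes controls M0 and M2 were the lowest of the 8 mice and control M3 was the highest control.

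Some genes, among them factors known from other forebrain regions, ran the opposite way in the controls. They were chosen after their values were seen and are given as values alone. *Zic1*, a factor of the septum and medial forebrain, stood at 22.8, 79.6, 3.27 and 15.5 CPM in controls M0, M2, M3 and M6 and at 2.13 to 7.43 CPM in nPM mice. *Nkx2-1*, which specifies the ventral forebrain, was at 6.97, 3.58 and 3.04 CPM in controls M0, M2 and M6, at the no-read value in M3, and at most at 1.7 CPM with nPM. *Six3*, *Lhx8*, *Gbx1*, *Magel2*, *Ngb*, *Ecel1* and *Chat* (the enzyme that makes acetylcholine) were each lower in control M3 than in any other control. The 7 markers of striatal neurons summed to 1885, 847, 702 and 789 CPM in the controls and to 1742, 954, 110 and 707 CPM with nPM, so nPM M12 was low in striatal genes while the 2 groups overlapped. All 7 striatal markers passed the filter and 0 of them reached an unadjusted p of 0.05 (limma), although all 7 log2 differences were below 0 (median -0.56). Whether these differences between controls had a part in the results below was not tested. Values without controls M0 and M2 are given below for many, but not all, of the gene lists and named genes. Without these controls the median of the striatal markers was -0.14.

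**Figure D1:**
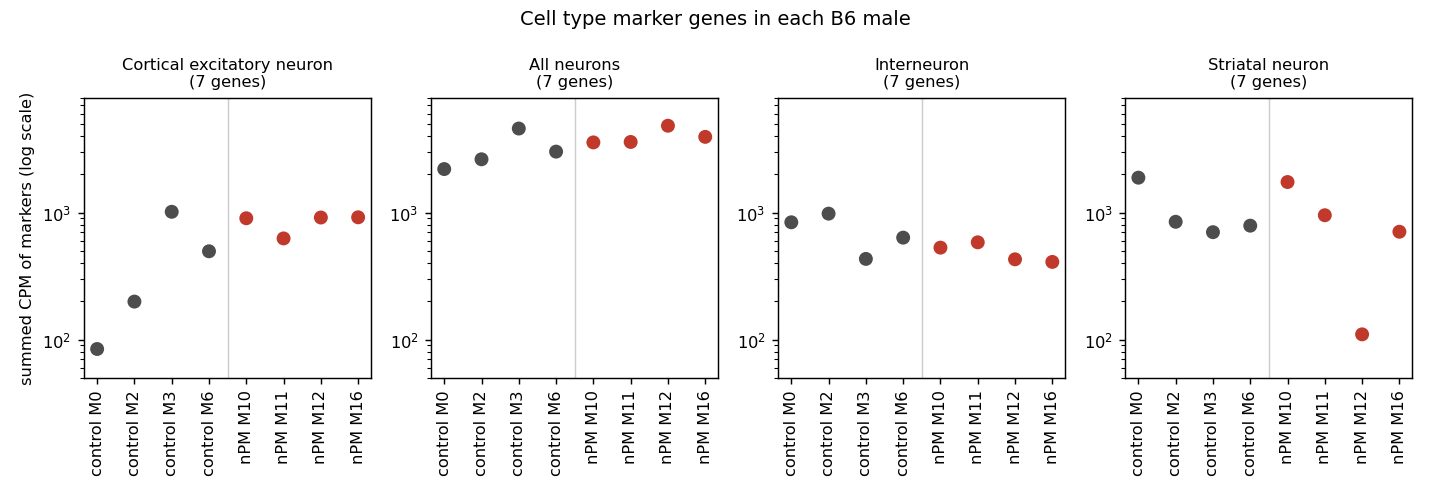
Summed CPM (log scale) of 7 marker genes each for cortical excitatory neurons, all neurons, interneurons and striatal neurons in each B6 male (grey controls, red nPM). Control M0 (84.4) and control M2 (199) lie far below the other 6 mice (496 to 1015) in cortical excitatory markers, while nPM M12 is lowest in striatal markers (110).

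At the threshold of an unadjusted p under 0.005 by limma, 37 of 15344 genes (0.241% of those tested) differed between nPM and filtered air, 18 higher and 19 lower with nPM. Without TMM scaling between mice the split was 13 higher and 25 lower. With no response in any gene this threshold would pass about 76.7 of them. At 5% FDR 0 genes passed, the smallest adjusted p being 0.998 (limma with Benjamini-Hochberg adjustment), and 675 genes (4.4%) had an unadjusted p under 0.05, 361 higher and 314 lower. Over all genes tested the log2 difference had a median of 0.01, and 51.1% lay above 0. The 95% interval of a gene had a median reach of 0.70 to either side on the log2 scale, a 1.63-fold change, which is the precision these mice gave for a typical gene. Groups did not overlap in 23 of the 37 genes. The 37 were picked by a small p in the same mice, which favours genes without overlap, so this count is no separate evidence. For this reason it cannot be weighed against the 2.24% of all genes tested whose groups did not overlap (1.23% with nPM higher and 1.01% with nPM lower). Of the 37, 13 rested on fewer than 10 estimated reads in at least 1 mouse.

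Of the genes higher with nPM, *Gm2541*, a processed pseudogene on chromosome 16 (85553233 to 85553943, mm10), stood at 5.11, 7.38, 8.64 and 5.83 CPM in the controls and at 18.1, 17.4, 12.9 and 17.9 CPM with nPM (log2 difference 1.24 ± 0.28 SE, unadjusted p = 0.000519 by limma). Its groups did not overlap, but reads of a pseudogene may be shared with its parent gene, so its level is uncertain. *Sorbs2*, an actin-binding adaptor of dendrites, was at 19.6, 41.6, 43.3 and 27.1 CPM in controls and at 92.8, 52.9, 57.7 and 71.3 CPM with nPM, a 2.1-fold difference without overlap (unadjusted p = 0.00164, limma). *Dlgap2*, a scaffold of the postsynaptic density, averaged 10.1 ± 5.42 and 24.6 ± 6.27 CPM, and the guanine nucleotide exchange factor *Rasgef1c* 7.91 ± 1.59 and 15.4 ± 1.43 CPM (SD, n = 4), both again without overlap. *Cux2*, a factor of upper-layer neurons, was at 21.8, 13.9, 30.1 and 26.1 CPM in controls and 43.5, 36.7, 54 and 42.5 CPM with nPM.

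In *Cited4*, *Lingo1*, *Dgkz* and *Pcdha12* control M3 lay within the range of the exposed mice. *Cited4*, a transcriptional co-activator, was at 0.465, 0.688 and 0.507 CPM in controls M0, M2 and M6 and at 3.09 CPM in M3, against 6.86, 2.55, 4.59 and 3.44 CPM with nPM. *Lingo1*, a myelination inhibitor on neurons, stood at 66.9, 60.1 and 87.7 CPM in the same 3 controls and at 159 CPM in M3, against 149 to 197 CPM with nPM. *Dgkz*, a diacylglycerol kinase of synapses, was at 61.2 to 73.9 CPM in 3 controls, at 184 CPM in M3 and at 132 to 232 CPM with nPM. *Pcdha12*, a clustered protocadherin whose 3' exons are shared with its neighbours and whose level is therefore uncertain, and *Scube1* had log2 differences of 1.67 ± 0.46 and 1.62 ± 0.45 (SE). *Prcd*, a gene of photoreceptor discs, and *Cited4* each rested on as little as 1 estimated read in a mouse.

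Among genes lower with nPM, *Pipox*, a peroxisomal enzyme that degrades pipecolic acid and sarcosine (chromosome 11, 77880615 to 77894096), had the smallest p. It stood at 2.28, 2.82, 1.57 and 3.04 CPM in controls and at 0.316, 0.851, 0.361 and 0.53 CPM with nPM, and the groups did not overlap (log2 difference -1.54 ± 0.32 SE, unadjusted p = 0.000283, limma). At these levels 1 mouse had only 3 estimated reads. *Grid2ip*, a scaffold of the delta glutamate receptor, was at 1.12 to 2.92 CPM in controls and 0.117 to 0.53 CPM with nPM, and the noncoding RNA *2610306M01Rik* at 3.07 to 7.06 CPM and 1.13 to 2.01 CPM. Without overlap were also *Stard5*, *Ccdc24*, *Amigo2*, *Zcchc10*, *Tmem40* and the NFKB subunit gene *Rel*, with log2 differences between -1.20 and -1.73. *Amigo2*, an adhesion molecule of hippocampal CA2 neurons, averaged 8 ± 3.97 CPM in controls and 2.15 ± 1.16 CPM with nPM (SD, n = 4).

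The largest difference of the 37 was in *Peg10* (chromosome 6, 4747306 to 4760517), an imprinted retrotransposon-derived gene. It stood at 48, 102, 8.58 and 49.8 CPM in controls M0, M2, M3 and M6 and at 5.28, 15.5, 6.64 and 7.12 CPM with nPM (log2 difference -2.22 ± 0.57 SE, unadjusted p = 0.00175, limma), so only control M3 overlapped with the exposed mice. *Sox1*, a factor of neural progenitors and ventral forebrain neurons, was likewise lowest of the controls in M3, with 42, 49.3, 14.2 and 27.6 CPM in controls and 9.59 to 15.5 CPM with nPM. *Ap1s2*, an adaptor of vesicle coats, was at 44.9, 51.4, 12.7 and 31.9 CPM and at 9.76 to 16.1 CPM. In these genes control M3 was again the only control at the level of the exposed mice.

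**Figure D2:**
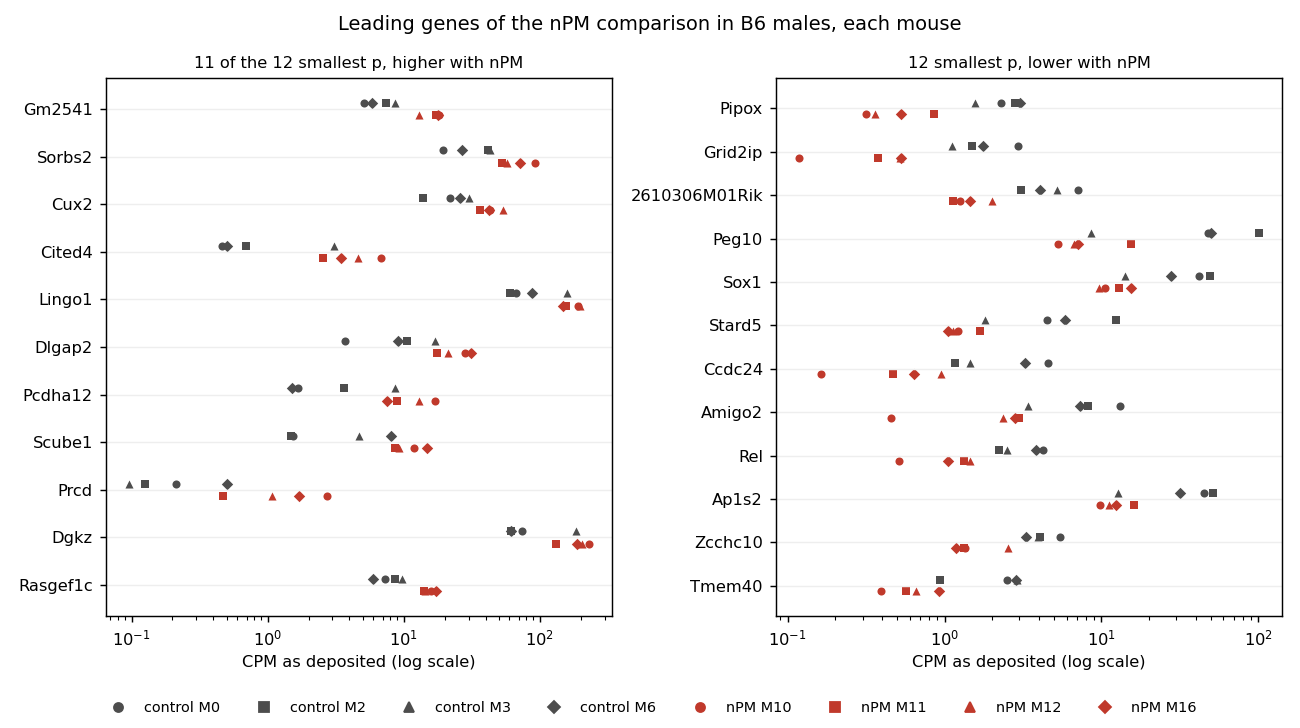
CPM (log scale) in each B6 male of 11 of the 12 genes with the smallest p higher with nPM (left) and of the 12 lower with nPM (right), grey for controls and red for nPM. The triangle of control M3 lies among the exposed mice in *Cited4* (3.09 CPM), *Lingo1* (159 CPM), *Dgkz* (184 CPM) and *Ap1s2* (12.7 CPM), while all controls lie apart from all nPM mice in *Gm2541*, *Pipox* and *Rel*.

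How the comparison rested on single controls was measured by refitting it. Control M3 lay within the range of the nPM mice in 13 of the 37 genes and was the control nearest to their mean in 28, whereas controls M0 and M2 lay within that range in 0 of them and M6 in 1. Without control M3, 277 genes had p under 0.005 (156 higher and 121 lower), including 32 of the 37, and 8 passed 5% FDR (limma). The 8 were *Peg10*, *Ap1s2*, *Isl1*, *Trh*, *Sparc* and *Baiap3*, lower with nPM, and *Dgkz* and *Nrn1*, higher with nPM. *Isl1*, a factor of striatal and cholinergic neurons, was at 13.8, 9.47 and 8.62 CPM in controls M0, M2 and M6, at 1.33 CPM in M3 and at 0.619 to 1.78 CPM with nPM. *Trh*, the precursor of a hypothalamic releasing hormone, was at 24.7, 13.9 and 23.3 CPM in the same controls, at 1.57 CPM in M3 and at 1.65 to 4.77 CPM with nPM. *Baiap3*, a regulator of dense-core vesicles, stood at 21.2, 34.6 and 33.5 CPM and at 0.38 CPM in M3, against 0.774 to 7.04 CPM with nPM. *Nrn1*, a neurite growth factor, was at 32.5, 33.5 and 44.5 CPM, at 205 CPM in M3 and at 97.5 to 213 CPM with nPM.

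Without controls M0 and M2 the count was 24 genes, of which 4 were among the 37, and 0 passed 5% FDR while 371 genes (2.42%) had an unadjusted p under 0.05. All 37 kept their sign, 28 had p under 0.05 and their median absolute log2 difference was 1.06 against 1.27 with all mice. With the cortical excitatory sum as a covariate 11 genes passed p under 0.005, 1 of them among the 37, and 229 genes (1.49%) had p under 0.05. All 37 kept their sign there too, with 19 at p under 0.05 and a median absolute difference of 0.97. Among the genes with p under 0.05 in both refits were *Pipox* (-1.46 without M0 and M2 and -1.36 with the covariate), *2610306M01Rik* (-1.40 and -1.32), *Tmem40* (-1.61 and -1.45) and *Gm2541* (1.14 and 1.06). These refits share samples with the comparison and are no independent test of it.

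**Figure D3:**
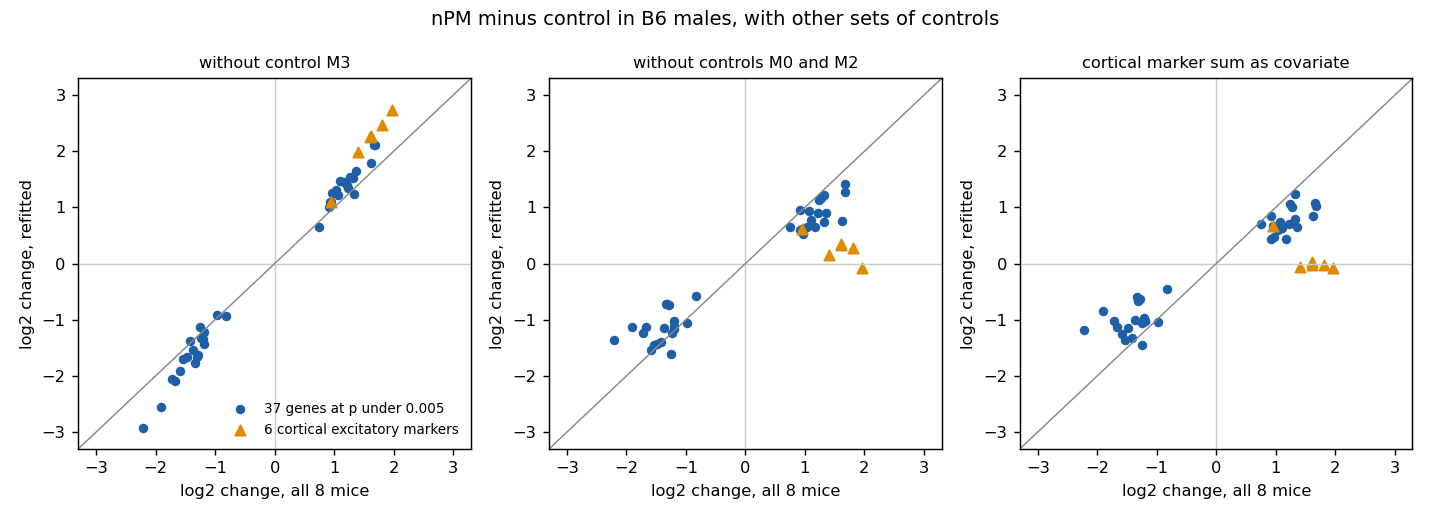
Log2 differences of nPM minus control with all 8 males (x) and refitted (y) without control M3, without controls M0 and M2, or with the summed cortical excitatory markers as a covariate. The 37 genes at p under 0.005 (circles) keep their sign without M0 and M2 and with the covariate. Of the 6 cortical excitatory markers (triangles), whose own sum is the covariate, 5 lie at or below 0.35 without M0 and M2, and *Cux2* lies at 0.62.

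Several neuronal gene lists lay mostly above 0. All 6 tested cortical excitatory markers reached an unadjusted p under 0.05 in that direction, against 2.35% of all genes, with a log2 difference of 0.95 in *Cux2* and a median of 1.61. Without controls M0 and M2 their median was 0.30 and 1 of 6 reached p under 0.05. Of 20 genes of synaptic vesicle release 19 were above 0 with a median of 0.43, against 51.1% of all genes tested. Of the 20, 5 were higher at p under 0.05, against 2.35% of all genes. *Stx1a*, a membrane syntaxin of the fusion machinery, stood at 16.5, 17.8, 111 and 63.2 CPM in controls and at 94.7, 67.1, 113 and 90.6 CPM with nPM, lowest in controls M0 and M2. *Bsn* (Bassoon), a scaffold of the active zone, was at 54.3, 51.6, 92.4 and 126 CPM and at 105 to 177 CPM, and the priming factor *Unc13a*, the vesicle protein *Sv2b* and the calcium sensor *Syt1* had log2 differences of 0.59, 0.87 and 0.55. Without controls M0 and M2, 0 of the 20 reached p under 0.05 and the median was 0.08.

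Genes of calcium signalling ran alike. Of 22 members 21 were above 0 (median 0.38), against 51.1% of all genes tested. *Camk2a*, *Camkk2*, *Itpr1* and *Camk4* were higher at p under 0.05, against 2.35% of all genes. *Camk2a*, the abundant kinase of excitatory synapses, was at 802 and 1373 CPM in controls M0 and M2, at 2134 and 2186 CPM in M3 and M6 and at 2151 to 3146 CPM with nPM (log2 difference 0.77 ± 0.30 SE). *Camkk2*, an upstream kinase of the calmodulin kinase cascade, was lowest in the same 2 controls. Without them 0 of the 22 reached p under 0.05 and the median was 0.12.

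Immediate early genes, which neurons switch on after activity, had a median of 0.42 with 15 of 18 above 0 and 4 at p under 0.05 and higher, against 2.35% of all genes. Their median was 0.15 without controls M0 and M2, where 1 of 18 reached p under 0.05 and *Nr4a2* (1.40) and *Egr1* (0.69) did not. *Nr4a2*, an orphan nuclear receptor, stood at 0.887, 6.18, 17.4 and 5.24 CPM in controls and at 63.6, 48.7, 13.4 and 11.7 CPM with nPM (log2 difference 2.27 ± 0.68 SE), high in nPM M10 and M11 and lower in nPM M12 and M16 than in control M3. *Egr1* was at 84.1, 105, 75.8 and 214 CPM in controls and 191 to 245 CPM with nPM, so that control M6 alone lay with the exposed mice. *Homer1*, a postsynaptic scaffold with an activity-induced short form, was at 13.4, 30, 36.3 and 27.6 CPM and at 50.4, 40.7, 57.3 and 48.9 CPM, without overlap (unadjusted p = 0.00497, limma), and at unadjusted p = 0.0255 without controls M0 and M2. *Fos*, *Arc* and *Npas4*, the classic activity genes, had log2 differences of 0.69, 0.42 and -0.13 with intervals that held 0. Among 18 circadian clock genes 3 were higher at p under 0.05, against 2.35% of all genes. Of the 18, 12 lay above 0, against 51.1% of all genes, with a median of 0.21 (0.18 without controls M0 and M2). The clock repressor *Ciart* (1.28), the output factor *Hlf* (0.61) and *Rorb* (0.80), which is also a layer 4 marker, reached p under 0.05. The other members of the list did not. None of the 18 reached p under 0.05 in limma without controls M0 and M2 (*Ciart* 0.85, *Hlf* 0.38 and *Rorb* 0.33). *Robo2*, a receptor of axon guidance, was at 21.2 to 31 CPM in controls and 36.8 to 53.8 CPM with nPM. It was the only 1 of 26 tested guidance genes at p under 0.05, where 4.4% of all genes were in either direction. Without controls M0 and M2 its log2 difference was 0.60 (unadjusted p = 0.0257, limma).

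**Figure D4:**
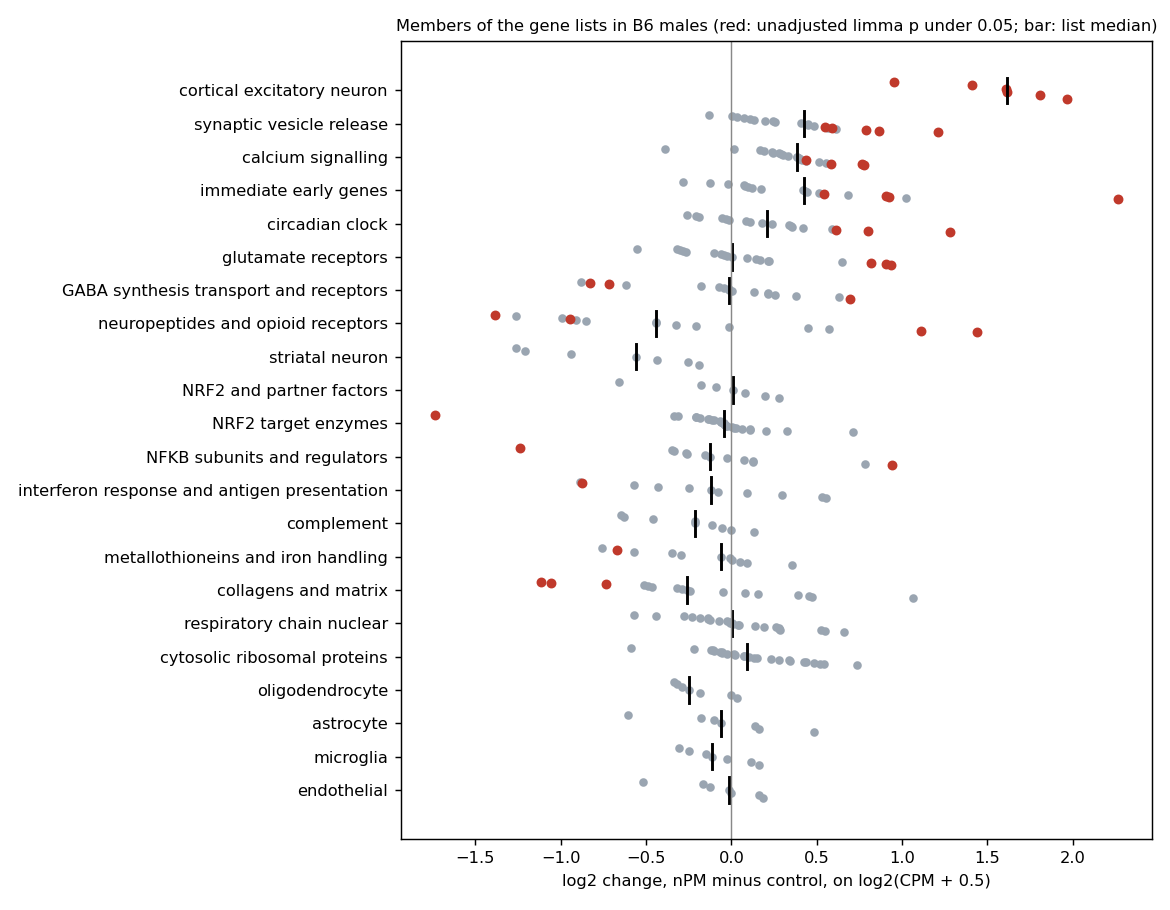
Log2 differences (nPM minus control, on log2 of CPM plus 0.5) of every tested member of 22 gene lists in B6 males, with a bar at each list's median and red points for an unadjusted limma p under 0.05. Cortical excitatory markers lie at 0.95 or above and synaptic vesicle, calcium and immediate early genes mostly above 0, whereas the NRF2 lists, the respiratory chain and the oligodendrocyte, astrocyte and microglia markers have medians from -0.25 to 0.01.

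Glutamate receptor genes had a median of 0.00 over 19 tested, with 3 of them, *Grin2a*, *Grm8* and *Grm2*, at p under 0.05 and higher with nPM, against 2.35% of all genes. Their log2 differences were 0.40, 0.70 and 0.12 without controls M0 and M2, and none of these 3 then had p under 0.05 (limma). *Grin2a*, an NMDA receptor subunit of mature synapses, stood at 19.4, 42.3, 59.5 and 44.6 CPM in controls and at 56.6, 59.5, 80 and 84 CPM with nPM. *Grin1*, the obligatory NMDA subunit, was at 60.9 to 87.7 CPM and 66.7 to 103 CPM, a log2 difference of 0.22 with a 95% interval from -0.22 to 0.65. Inhibitory genes were divided. *Gad1*, which makes GABA, and *Slc32a1*, which loads it into vesicles, were lower with nPM (log2 differences -0.72 and -0.83), and the GABA-B receptor subunit *Gabbr2* was higher (0.69). Leaving out controls M0 and M2 put *Slc32a1* at -0.41 and *Gabbr2* at 0.24, both with p above 0.05. *Gad1* stood at 220 and 209 CPM in controls M0 and M2 and at 103 and 120 CPM in M3 and M6, beside 67.1 to 116 CPM with nPM, and its difference was -0.24 (unadjusted p = 0.347, limma) without M0 and M2.

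Neuropeptide genes spread from -1.39 to 1.44 on the log2 scale (15 tested, median -0.44, and -0.13 without controls M0 and M2). *Vip*, a peptide of a cortical interneuron class, was at 0.761, 3.91, 15.1 and 6.5 CPM in controls and 13.1, 9, 16.6 and 14.8 CPM with nPM, and *Cck*, abundant in cortex, at 11.1 to 15.1 CPM in 3 controls, 46.8 CPM in M3 and 23.2 to 59.8 CPM with nPM. *Pdyn*, the dynorphin precursor, went the other way, with 78, 39.3, 15.6 and 37.3 CPM in controls and 6.94, 30.3, 13.2 and 13.1 CPM with nPM. The log2 differences of *Vip*, *Cck* and *Pdyn* without controls M0 and M2 were 0.36, 0.57 and -0.80, against 1.44, 1.11 and -1.39 with all mice, and none of them had p under 0.05. *Oprl1*, the nociceptin receptor, was lower in every exposed mouse (6.68 to 9.99 CPM) than in every control (11.8 to 24.1 CPM), a log2 difference of -0.94 ± 0.29 (SE, unadjusted p = 0.00573, limma) that was -1.11 (unadjusted p = 0.00742) without controls M0 and M2. Interneuron genes were split in the same way, with *Lhx6* (-0.93, and -0.63 without controls M0 and M2) and *Gad1* lower, *Vip* higher and *Sst* (-0.02) and *Pvalb* (-0.10) near 0.

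Among tested genes of the NRF2 lists *Gpx3* alone reached p under 0.05, against 4.4% of all genes in either direction. The typical 95% interval reached 0.70 to either side on the log2 scale, so smaller differences in these genes were not resolved. *Nfe2l2* itself was at 28.6, 18, 13 and 17.7 CPM in controls and at 7.34, 16.3, 13.5 and 11.7 CPM with nPM, a log2 difference of -0.66 with a 95% interval from -1.32 to 0.01 (unadjusted p = 0.0533, limma). Control M0 was highest and nPM M10 lowest, and the other 6 mice overlapped. Without controls M0 and M2 the *Nfe2l2* difference was -0.37. The inhibitor *Keap1* (0.08, interval -0.36 to 0.53) and the related factor *Nfe2l1* (0.20, interval -0.24 to 0.64) had intervals around 0, and 0 of the 7 tested factors reached p under 0.05.

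Of 29 tested NRF2 target enzymes 9 were above 0, against 51.1% of all genes tested, and the median was -0.04. Without control M0 alone, 16 were above 0 and the median was 0.02. Without controls M0 and M2, 13 were above 0 and the median was again -0.04. *Gclc*, the catalytic subunit of the rate-limiting enzyme of glutathione synthesis, stood at 48.3, 63.1, 51.6 and 53 CPM in controls and at 48.3, 56.7, 47 and 50.6 CPM with nPM, so the groups coincided (log2 difference -0.10, interval -0.50 to 0.29). *Nqo1*, a quinone reductase, was at 2.28 to 5.03 CPM and 1.59 to 3.67 CPM, and *Hmox1*, which degrades heme, at 1.48 to 5.07 CPM and 2.53 to 3.35 CPM. *Gstp1*, a glutathione transferase, averaged 17.6 ± 4.58 and 17.3 ± 4.88 CPM (SD, n = 4). The exception was *Gpx3*, the secreted glutathione peroxidase, at 87.3, 49, 8.07 and 59.1 CPM in controls M0, M2, M3 and M6 and at 14.1, 24, 4.28 and 10.5 CPM with nPM. Its log2 difference was -1.74 ± 0.62 (SE, unadjusted p = 0.0146, limma), with control M3 again among the exposed mice, and -0.97 (unadjusted p = 0.2) without controls M0 and M2.

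The promoters of these enzymes were read from the RefSeq table (GRCm38.p6, 250 bases before to 50 after each start), which held 33 promoters for 25 of the 30 listed genes. The core of the antioxidant response element that NRF2 binds, TGACNNNGC on either strand, was in 10 of the 33 (30.3%), against 12.4% of all 32851 promoters. A match is a description of letters, not a bound site. The 10 genes with a match had log2 differences from -0.31 to 0.06 (median -0.04), and the 14 tested genes without it from -1.74 to 0.71 (median -0.04). The promoters of the 4 genes with a match and the highest levels are shown, each 5' to 3' on the gene's strand with the match in capitals, to show the element in genes whose groups overlapped: *Gstm5*, a brain glutathione transferase (-0.03), *Srxn1*, which repairs peroxiredoxins (-0.14), *G6pdx*, which supplies NADPH (0.06), and *Txnrd1*, a thioredoxin reductase (-0.04). The promoters of *Nqo1*, *Gpx3* and *Gstp1* held no match, and *Hmox1* and *Gclc* had no entry.
Gstm5 promoter (chr3:107895604-107895903, plus strand): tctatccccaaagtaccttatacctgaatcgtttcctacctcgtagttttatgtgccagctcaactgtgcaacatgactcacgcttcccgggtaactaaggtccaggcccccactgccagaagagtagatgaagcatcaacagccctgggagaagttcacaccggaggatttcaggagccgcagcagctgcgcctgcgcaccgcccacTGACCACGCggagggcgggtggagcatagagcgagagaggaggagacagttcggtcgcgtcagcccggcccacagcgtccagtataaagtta
Srxn1 promoter (chr2:152105274-152105573, plus strand): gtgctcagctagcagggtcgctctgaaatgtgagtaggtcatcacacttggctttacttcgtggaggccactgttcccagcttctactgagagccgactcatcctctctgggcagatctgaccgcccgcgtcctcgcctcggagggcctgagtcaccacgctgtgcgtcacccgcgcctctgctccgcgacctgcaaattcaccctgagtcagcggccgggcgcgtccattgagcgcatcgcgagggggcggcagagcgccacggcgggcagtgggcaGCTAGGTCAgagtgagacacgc
G6pdx promoter (chrX:74428831-74429130, minus strand): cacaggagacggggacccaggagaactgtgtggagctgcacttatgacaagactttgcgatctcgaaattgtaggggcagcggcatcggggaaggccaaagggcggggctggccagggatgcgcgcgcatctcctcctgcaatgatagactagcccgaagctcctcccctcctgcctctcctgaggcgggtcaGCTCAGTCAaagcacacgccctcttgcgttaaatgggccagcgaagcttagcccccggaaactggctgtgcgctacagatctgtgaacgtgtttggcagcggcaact
Txnrd1 promoter (chr10:82858956-82859255, plus strand): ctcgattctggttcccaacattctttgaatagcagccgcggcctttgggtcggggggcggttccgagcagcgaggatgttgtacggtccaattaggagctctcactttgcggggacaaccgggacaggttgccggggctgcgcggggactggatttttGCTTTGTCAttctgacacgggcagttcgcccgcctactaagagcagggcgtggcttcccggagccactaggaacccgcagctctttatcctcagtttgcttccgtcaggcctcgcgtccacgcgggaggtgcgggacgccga

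**Figure D5:**
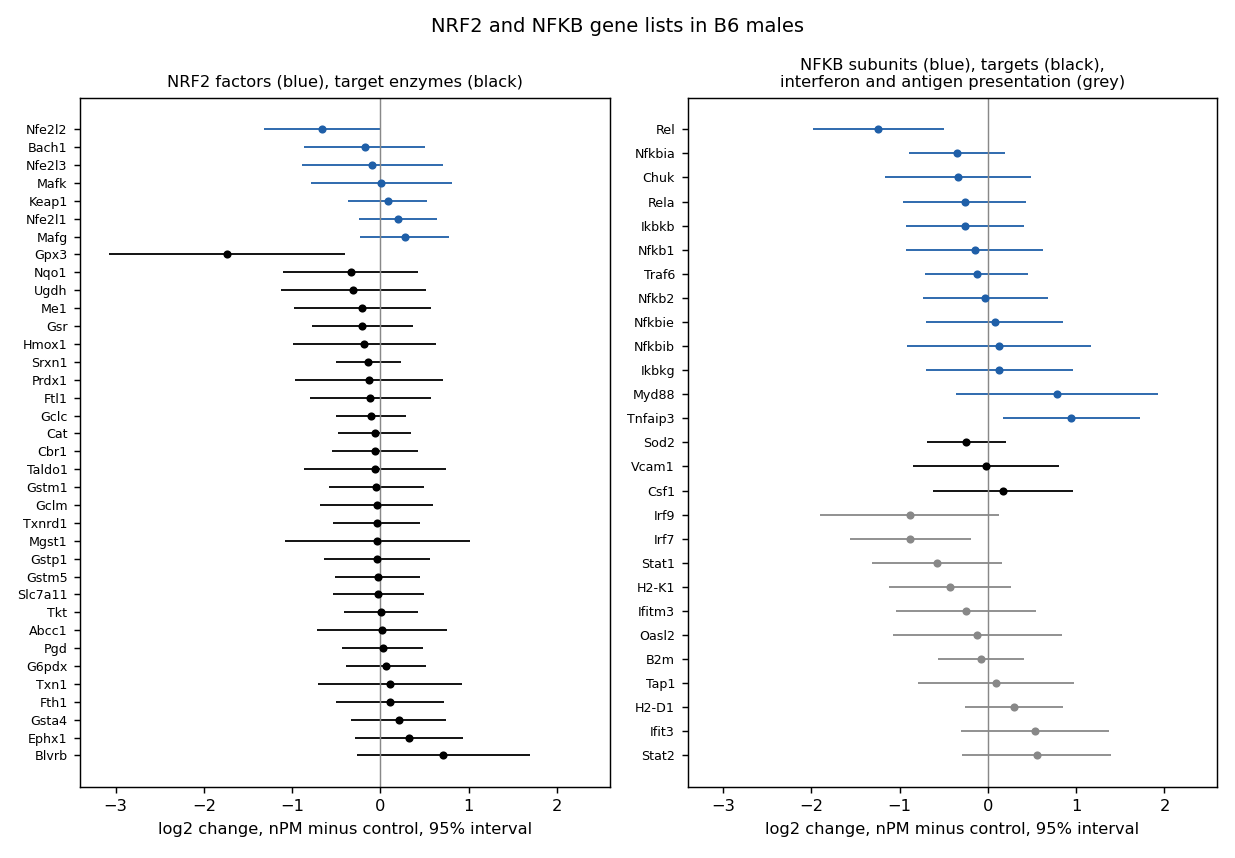
Log2 differences (nPM minus control) with 95% intervals from limma for every tested gene of the NRF2 lists (left) and of the NFKB and interferon lists (right) in B6 males. Most intervals cross 0. *Gpx3* (-1.74), *Rel* (-1.24) and *Irf7* (-0.88) lie below 0 and *Tnfaip3* (0.94) above.

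Among NFKB subunits and regulators 13 of 14 were tested, with a median of -0.13 and 5 above 0, against 51.1% of all genes tested. Without controls M0 and M2 the median was -0.21 and 3 were above 0. *Rel*, the c-Rel subunit of lymphoid and myeloid cells, was at 4.27, 2.22, 2.52 and 3.8 CPM in controls and at 0.513, 1.32, 1.44 and 1.06 CPM with nPM, without overlap (log2 difference -1.24 ± 0.35 SE, unadjusted p = 0.00302, limma), and at -1.24 without controls M0 and M2. It rested on as few as 7 estimated reads. *Tnfaip3* (A20), which terminates NFKB signalling, was higher in every exposed mouse (2.56 to 4.95 CPM) than in every control (0.76 to 2.47 CPM), with a log2 difference of 0.94 ± 0.36 (SE, unadjusted p = 0.0209). *Tnfaip3* was at 0.62 without controls M0 and M2 (unadjusted p = 0.152, limma). The main subunits *Rela*, which encodes p65 (-0.26, interval -0.96 to 0.43), and *Nfkb1*, which encodes p50 (-0.15, interval -0.92 to 0.62), overlapped between the groups.

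Stress signalling genes beside this pathway overlapped too, with log2 differences of -0.46 for the small GTPase gene *Rap1a* (interval -1.17 to 0.25), 0.08 for the AP-1 subunit *Jun* (interval -0.37 to 0.53) and 0.20 for the transcription factor *Elk1* (interval -0.23 to 0.64).

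Inflammatory targets of NFKB were mostly below detection. Only 3 of 20 listed genes could be tested (*Sod2* -0.24, *Vcam1* -0.02 and *Csf1* 0.17, each with an interval across 0). *Il1b* was at the no-read value in 4 of the 8 mice and at most at 0.53 CPM, and *Ccl2*, *Ccl4* and *Cxcl1* were at it in all 8, so a response of these cytokines was not detectable at this depth. Of 11 tested interferon and antigen presentation genes *Irf7*, the master regulator of type I interferon, alone reached p under 0.05, against 4.4% of all genes. It stood at 1.91, 1.57, 1.89 and 1.77 CPM in controls and at 0.399, 0.566, 1.31 and 0.923 CPM with nPM. Every control lay above every exposed mouse (log2 difference -0.88 ± 0.32 SE, unadjusted p = 0.0152, limma). *Irf7* rested on as few as 5 estimated reads in a mouse, so the closeness of the controls is uncertain. None of 9 tested complement genes reached p under 0.05, with a median of -0.21 that was 0.13 without controls M0 and M2. Nor did any of 6 genes of the aryl hydrocarbon receptor pathway that responds to polycyclic hydrocarbons (median -0.06).

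Of 11 tested genes of metal handling 1 reached p under 0.05 and was lower with nPM, against 2.05% of all genes in that direction. *Mt2*, a metallothionein that binds zinc and copper, was at 45.8, 30.6, 25.8 and 40.3 CPM in controls and at 35.9, 19.6, 14.9 and 21.7 CPM with nPM (log2 difference -0.67 ± 0.29 SE, and -0.57 with p above 0.05 without controls M0 and M2), with overlap, and its relatives *Mt1* and *Mt3* were at -0.57 and -0.01. *Sparc*, a matrix protein secreted by astrocytes and vessels, stood at 389, 420, 85.9 and 333 CPM in controls and at 123, 203, 92 and 113 CPM with nPM, and *Col1a1* and *Col6a1* were lower too (-1.12 and -0.74). Of 17 tested matrix genes (median -0.26) these 3 reached p under 0.05, against 2.05% of all genes in that direction, and 0 did without controls M0 and M2. *Hk1*, the brain hexokinase, was at 103, 137, 148 and 230 CPM in controls and at 189 to 258 CPM with nPM. It was the only 1 of 18 hypoxia and glycolysis genes at p under 0.05, where 2.35% of all genes were higher. Its log2 difference of 0.57 was 0.26 without controls M0 and M2.

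The 25 nuclear genes of the respiratory chain (median 0.00), the 26 tested cytosolic ribosomal proteins (0.09) and the 14 tested stress chaperones (0.08) gave 0 genes at p under 0.05. So did the markers of astrocytes, oligodendrocytes, their precursors, microglia, endothelium and mural cells, 7 genes each, with medians of -0.06, -0.25, -0.35, -0.12, -0.01 and -0.14. Without controls M0 and M2 these medians were 0.05, 0.05, -0.15, 0.10, -0.09 and -0.15. *Clic6*, a choroid plexus marker, was at 18, 20.2, 0.427 and 11.4 CPM in controls and at 0.155 to 6.52 CPM with nPM (log2 difference -2.18, and -0.90 without controls M0 and M2), whereas *Ttr*, the defining transcript of choroid plexus, was at 0.296, 16.1, 0.19 and 7.61 CPM and at 0.567 to 29 CPM, in no order of groups.

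The response of males was compared with that of B6 females as a contrast over the 16 B6 mice. Of 13839 genes tested in both sexes 120 (0.867%) differed in response at an unadjusted p under 0.005, 65 with a higher log2 difference in males and 55 with a lower one, and 0 passed 5% FDR (smallest adjusted p = 0.51, limma). At an unadjusted p under 0.05 there were 1181 genes (8.53%). Without TMM scaling the same contrast gave 14 higher and 166 lower, and the median of all genes moved from 0.04 to -0.17, so the split between directions depends on the scaling. *Rnf6*, a ubiquitin ligase, had the smallest p, with 13.2 to 23.5 CPM in male controls and 25.3 to 28.8 CPM in exposed males, a log2 difference of 0.66 ± 0.23 in males and -0.58 ± 0.18 in females (SE), which differed by 1.25 (unadjusted p = 0.000212, limma). *Pigf*, an enzyme of membrane anchors, was at 0.90 in males and -1.54 in females, and *Gm10222*, a pseudogene of mitochondrial origin whose reads cannot be told apart from the mitochondrial gene, at 0.52 and -1.24.

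In the other direction *Cacna2d2*, a calcium channel subunit, stood at 62.6, 77.3, 23.1 and 45.8 CPM in male controls and at 11.5 to 30.7 CPM in exposed males, with log2 differences of -1.28 ± 0.36 in males and 0.71 ± 0.26 in females (SE). *Ece2*, an endothelin-converting enzyme, was at -0.86 and 1.13, and the pseudogene *Rpsa-ps11* at -0.45 and 1.22. The sexes also went apart in *Gpx3* (-1.74 and 1.18, unadjusted p = 0.00151 for the difference), *Mt2* (-0.67 and 1.05, unadjusted p = 0.000878) and *Homer1* (0.93 and -0.38, unadjusted p = 0.00136), none of which passed 5% FDR for the difference (adjusted p = 0.51, limma). Without controls M0 and M2 the contrast gave 79 genes at p under 0.005, and without control M3 it gave 301, of which 12 passed 5% FDR.

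The direction of the 37 genes was followed in mice that share no control with the B6 males. In B6 females 26 of them were tested and 15 (57.7%) had the same sign, against 47% of all 13839 genes. *Cited4* alone had p under 0.05 in the same direction (1.07 ± 0.41 SE), where 4.52% of all genes did. *Cacna2d2* and *Tspyl2* had p under 0.05 in the opposite direction. In APOE3 males 18 of 34 had the same sign (52.9%, against 52.5% of all genes). These males carry human APOE3 in place of mouse *Apoe*, were labelled 6 months old and were exposed for 15 weeks. In the same direction 0 of the 34 had p under 0.05, against 0.72% of all genes, and in the opposite one *Atp10a* did. In APOE4 males 16 of 34 had the same sign (47.1%, against 49.5%), again with 0 at p under 0.05, against 1.77% of all genes in the same direction. *Peg10*, with -2.22 in B6 males, was at -0.24 in B6 females, 0.01 in APOE3 males and 0.05 in APOE4 males. *Cux2* was at 0.95, -0.28, 0.12 and 0.14 in the same order, and *Rel*, not tested in B6 females, at -0.04 and 0.03 in the APOE males. The standard error of a gene had a median of 0.33 in B6 males against 0.09 in APOE3 males.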

How the data were processed

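Cortical RNA of single mice was prepared by the authors with TRIzol and a column kit, sequenced from stranded mRNA libraries, aligned to mm10 with TopHat2 2.0.8b and quantified with Partek. The deposited values are CPM per gene. They sum to 526568 to 599331 per B6 male, and what the authors scaled them to is not given in the sources used here. B6 and APOE mice were in tables normalized separately and were tested apart.

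Gene values equal to a column's minimum were read as no reads, and a gene was tested if it lay above 1.5 times that minimum in all 8 males. After 4 rows with repeated symbols were left out, 27082 genes remained. Values were TMM scaled (edgeR 4.0.16), taken as log2(CPM + 0.5) and tested with limma 3.58.1 in R 4.3.3, on the 8 males alone. A log2 difference on this scale understates the change of low genes. Calls were unadjusted p under 0.005, beside 5% FDR by Benjamini-Hochberg. Estimated reads are the value divided by the column minimum, minus 1, and not below 0. Low values were not whole multiples throughout, so no count test was run on B6 mice. Read depth per mouse and the number of mice limit precision as given above, and since nothing says more than that the samples are separate mice, p-values cover the spread between these mice.

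Named genes were, per direction, those 12 of smallest p, up to 4 members per list with p under 0.05, key genes of the NRF2 and NFKB pathways, the 3 in each direction with the smallest p for the sex difference, and label checks. Some genes that this rule names are not reported here. A few other list members are given as values, and *Nrn1* and the genes that followed the controls were chosen after their values were seen. The members and the gene lists were chosen with earlier results of these data known, and no list is independent evidence of its direction. The 2 refits for cortical markers (without controls M0 and M2, and with the marker sum as covariate) were added after seeing the data. Alternatives were other pseudocounts, scalings, filters and weights, voom, a variance shared with females, a depth covariate and leaving out each mouse. The script was tested on simulated data. Promoters came from RefSeq (GRCm38.p6).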

Additional observations from a re-analysis of the deposited data

Results flagged for a closer look

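Among 268 groups of 4 mice tested for an extreme mouse by Dixon's criterion at 95%, 21 had one. For independent, normally distributed values about 1 in 20 groups, or 13.4, would. These groups share mice and list members, and many genes were named for a small p in the same mice. The 21 therefore cannot be weighed against 13.4. Control M3 stood above the other controls in *Cited4* (3.09 against 0.465 to 0.688 CPM), *Dgkz* (184 against 61.2 to 73.9 CPM), *Cck* (46.8 against 11.1 to 15.1 CPM) and *Elk1* (74.9 against 45.4 to 46.5 CPM). Control M0 stood apart on the first principal component (-88.7 against 8.09 to 12.4) and was high in *Rpsa-ps11* (156 CPM) and in the summed CPM of complement genes (300.4 against 168 to 188), metallothionein and iron genes (504), neuropeptides (1566) and striatal markers (1885). Control M6 was high in summed immediate early genes (695 against 320 to 364 CPM).

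Among exposed mice, nPM M12 was lower than the others in *Gm2541* (12.9 CPM) and *Isl1* (0.619 CPM) and higher in *Zcchc10* (2.53 CPM). In nPM M10 *Ddx3y* (6.81 CPM) and the summed inflammatory NFKB targets (71.3 against 109 to 116 CPM) were low and *Rpsa-ps11* (97.2 CPM) was high. In nPM M11 *Rap1a* (9.65 CPM) and *Gm10222* (1114 CPM) were high and the summed cortical excitatory markers (626 CPM) low, and in nPM M16 *Jun* was low (25.6 CPM). No gene differed in response between the sexes at 5% FDR (limma).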

How the results depend on the processing

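The count of 37 genes at p under 0.005 was 33 and 41 with pseudocounts of 0.1 and 2 CPM, 37 with DESeq2 size factors and 38 without TMM, where the split moved from 18 higher and 19 lower to 13 and 25. It was 86 with voom, 76 with the variance shared over 16 B6 mice (53 higher and 23 lower), 24 without controls M0 and M2 and 11 with the cortical marker sum as a covariate. Leaving out 1 mouse gave 13 (without nPM M10) to 277 genes (without control M3), and 0 to 8 at 5% FDR, the cause of which was not tested. The shared genes were 5 and 32 of the 37. The sex difference of 120 genes was 204 with sample quality weights, 79 without controls M0 and M2, and 77 (without nPM M12) to 301 (without control M3) when a male was left out.

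With the marker covariate *Tbr1* (-0.028 from 1.81) and *Neurod6* (-0.021 from 1.61) reversed, both being members of that sum, as did *Elk1* (-0.0089), and *Nfkb1* did so there (0.29) and without controls M0 and M2 (0.16). Without controls M0 and M2 *Nfe2l1* (-0.029) and *Keap1* (-0.013) also reversed, and *Gstp1* did with quality weights (0.010). With single mice left out, *Keap1* ranged from -0.012 to 0.19, *Gstp1* from -0.22 to 0.070 and *Nfkb1* from -0.37 to 0.089. The edgeR and DESeq2 tests planned for B6 reads were not run, since whole reads could not be recovered. No paired analysis was possible because control and exposed B6 males share no replicate number. Control M6 had the fewest estimated reads, which limits low genes.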
